A study of Mus musculus with 6 samples.

Results

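The genes described here are 46 genes of the TGF-beta superfamily pathway, taken by symbol from a fixed list of ligands, latency and activation proteins, receptors, Smads, inhibitors and Id targets. All 46 were found among the 43346 gene IDs of the tables, and 44 passed the filter on low counts. The samples were livers of C57BL6 mice aged 3 months, profiled by RNA-seq, with 3 libraries from mice labelled Control and 3 labelled DKO, a hepatocyte-specific deletion of β-catenin (Ctnnb1) and γ-catenin (Jup). Neither the promoter behind the deletion nor the alleles of the Control mice is named in the labels. The title of the series names TGFβ signalling as a point of interest, and the comparison asks whether transcripts of that pathway differ between the groups. The labels number the libraries without tying each to a separate animal, so a p-value measures only the spread between these libraries.

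TGF-beta superfamily ligands are secreted dimers that bring type I and type II receptor kinases together on the cell surface. TGF-betas are released in a latent form, held in the matrix by latent TGF-beta binding proteins (Ltbp genes) and freed by αv integrins. Receptors for TGF-beta and activin act mainly through Smad2 and Smad3, and receptors for BMPs through Smad1, Smad5 and Smad9, all with the shared partner Smad4. Smad6 and Smad7 feed back to damp the signal, and the Id genes are direct BMP targets. In liver, sinusoidal endothelial cells make BMPs that hepatocytes sense to set iron hormone output, and TGF-beta drives stellate cells to make matrix.

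The depth of the groups was very unequal, which bears on every value below. Control libraries held 12320487 to 15869639 reads assigned to genes, and the DKO-labelled libraries 1, 2 and 3 held 309731, 525037 and 1491237. Relative to Control, the median share taken by 163 abundant liver transcripts was 2.09%, 50.2% and 5.15% in these 3 libraries. Transcripts of 1343 olfactory and vomeronasal receptor genes, which serve the nose, summed to 9.10 to 14.1 CPM (the gene count relative to all gene reads of the library) in Control and to 823 to 1789 CPM in the DKO-labelled libraries. Reads expected in a gene from such background were therefore estimated from 8600 genes nearly silent in Control. The estimate is rough: among silent genes expected to have at least 3 reads, the middle 95% of observed over expected ratios ran from 0 to 7.45, 5.97 and 6.62 in libraries 1, 2 and 3, with medians of 0, 0.24 and 0.25. Mitochondrial transcripts made up 6.34% to 6.57% of gene reads in Control and 6.27%, 14.4% and 62.7% in DKO-labelled libraries 1, 2 and 3. Ctnnb1 had 2945, 2896 and 2650 Control reads against 0, 52 and 65 DKO-labelled reads, and Jup had 339, 270 and 196 against 6, 1 and 11. Neither targeted gene passed the threshold (adjusted p = 0.171 and 0.0847 in edgeR), so the groups are named as labelled throughout.

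Promoter sequence is shown for 4 members, the adjacent activin subunit genes Inhbe and Inhbc and the BMP targets Id2 and Id3. Of these, only Inhbe passed the threshold between the groups. Each run is the 250 bases upstream of a RefSeq start in the direction of the gene, on GRCm38.p6, which is the mm10 build. By the GENCODE gene models the windows of Inhbe, Id2 and Id3 lie inside the gene, whose annotated start is farther upstream, and that of Inhbc lies before it. Capitals mark GGCGCC, a GC-rich Smad-binding sequence, and CAGAC or its reverse complement GTCTG, which holds the short Smad box.
Inhbe, chr10:127351849-127352098, minus strand: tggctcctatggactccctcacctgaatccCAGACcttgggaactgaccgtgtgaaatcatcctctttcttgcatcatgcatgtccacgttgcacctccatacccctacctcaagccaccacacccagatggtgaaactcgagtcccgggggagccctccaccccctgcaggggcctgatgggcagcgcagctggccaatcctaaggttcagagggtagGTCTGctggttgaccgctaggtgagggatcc
Inhbc, chr10:127370549-127370798, minus strand: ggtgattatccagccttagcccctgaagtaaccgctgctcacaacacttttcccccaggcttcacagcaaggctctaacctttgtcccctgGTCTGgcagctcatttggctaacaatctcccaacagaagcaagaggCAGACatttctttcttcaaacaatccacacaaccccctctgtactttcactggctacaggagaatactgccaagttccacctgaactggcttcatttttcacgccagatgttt
Id2, chr12:25096093-25096342, minus strand: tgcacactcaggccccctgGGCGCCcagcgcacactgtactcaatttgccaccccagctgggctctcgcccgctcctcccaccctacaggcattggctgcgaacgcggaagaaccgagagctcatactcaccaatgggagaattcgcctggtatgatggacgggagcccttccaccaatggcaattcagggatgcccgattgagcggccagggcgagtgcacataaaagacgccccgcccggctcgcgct
Id3, chr4:136143572-136143821, plus strand: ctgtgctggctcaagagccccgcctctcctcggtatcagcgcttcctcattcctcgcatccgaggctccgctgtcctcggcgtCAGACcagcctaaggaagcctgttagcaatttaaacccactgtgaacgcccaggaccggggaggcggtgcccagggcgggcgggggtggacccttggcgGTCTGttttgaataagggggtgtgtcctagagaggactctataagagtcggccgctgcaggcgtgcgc
RefSeq windows were matched for 35 of the 46 members, 42 windows in all. GGCGCC was found in 10 of them (23.8%) against 9.59% of 32851 windows of the same length over all genes. CAGAC on either strand was found in 20 member windows (47.6%) against 42.2%, and the full palindrome GTCTAGAC in 0 against 0.167%. These matches describe letters only. The motifs do not overlap each other in the printed runs.

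In Control liver the pathway was led by BMP targets and by hepatokine-like ligands, on the scale of TMM-scaled CPM per kb of exon, the only scale here that allows levels to be compared between genes. Id2, an inhibitor of basic helix-loop-helix factors, stood first at 51.0 ± 17.2 CPM per kb (SD, n = 3). Gdf15, a stress-induced ligand, followed at 43.1, then Inhbc, the activin C subunit gene, at 28.5, and Id3 at 22.1. Eng, the endothelial co-receptor endoglin, was the highest receptor at 14.4 CPM per kb. Inhbe, the activin E subunit gene, stood at 13.4 and Id1 at 10.9. The ligands that give the pathway its name were far lower, at 0.887 for Tgfb1, 0.26 for Tgfb3 and 0.164 for Tgfb2. Itgb8, the integrin β subunit that activates latent TGF-beta, was last at 0.0109, from 1, 2 and 1 reads in the 3 libraries.

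**Figure D1:**
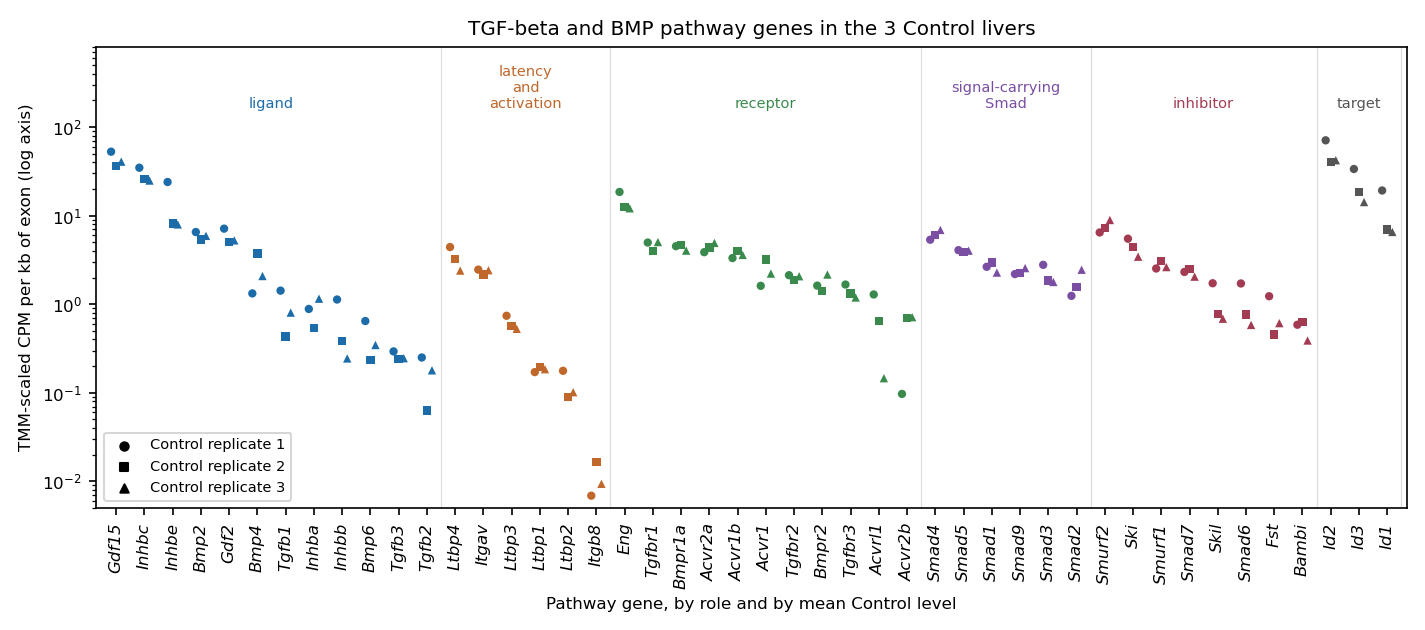
Level of each of the 46 pathway genes in the 3 Control libraries (circle, square and triangle for replicates 1, 2 and 3), as TMM-scaled CPM per kb of exon on a log axis, grouped by role. Id2 (mean 51.0) and Gdf15 (43.1) are at the top and Itgb8 (0.0109) at the bottom, and the circles of Id1, Id2, Id3 and Inhbe lie above their squares and triangles.

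Within the other roles, signal-carrying Smads were close together in Control, from 1.76 CPM per kb for Smad2 to 6.07 for the shared partner Smad4. Among the inhibitors the ubiquitin ligase gene Smurf2 was highest at 7.55, followed by Ski at 4.46 and Smurf1 at 2.74. Among type I receptors, Tgfbr1 stood at 4.67, Bmpr1a at 4.40 and Acvr1b at 3.63, and the type II receptor Acvr2a at 4.39. Ltbp4 (3.34), Itgav (2.35) and Ltbp3 (0.61) led the latency and activation genes. Levels spanned 4666-fold from first to last, yet of 45 pairs of neighbours in this order 42 had overlapping Control values. The order is therefore one of groups of genes rather than of single ranks.

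The Control libraries differed among themselves in this pathway, a point noticed after the values were seen. Control replicate 1 had the highest unscaled CPM of the 3 for 29 of the 46 members. Of the 45 members with at least 20 Control reads the share was 64.4%, against 47.3% of the 12410 tested genes with as many reads. In 16 of these members (35.6%) replicate 1 was at least 1.5 times the mean of replicates 2 and 3, against 14.1% of the tested genes. All 3 Id genes were among them. Id1 had 292, 89 and 73 reads in Control replicates 1, 2 and 3, 2.99 times the mean of the others in unscaled CPM, and Id3 had 788, 365 and 245, 2.16 times. Id2, with 2261, 1069 and 990, was 1.82 times higher. Inhbe had 1669, 476 and 407 reads, 3.13 times. Its neighbour Inhbc, on chromosome 10 with 1910 bases between the gene models, had 846, 530 and 445 reads, 1.44 times. The feedback inhibitors Smad6 (2.67 times) and Skil (2.48 times) lay in the same direction, while Smad7 did not (1.08 times). Bmp4 went the other way at 0.48 times, as did Acvr2b at 0.15.

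**Figure D2:**
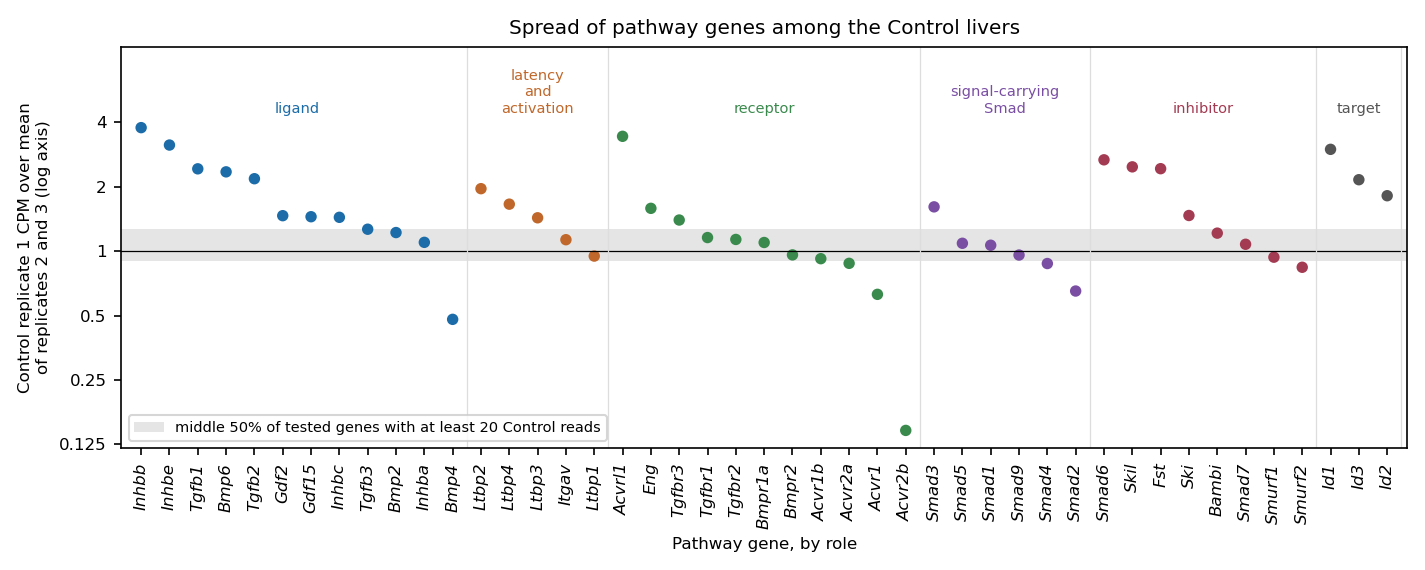
Unscaled CPM of each pathway gene in Control replicate 1 over the mean of Control replicates 2 and 3, on a log axis, for the 45 members with at least 20 Control reads, with the middle 50% of tested genes (0.895 to 1.27) in grey. Id1 (2.99), Id3 (2.16), Id2 (1.82) and Inhbe (3.13) lie above the grey band, and most Smads within or near it.

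Other readouts moved with the same library. Of 21 TGF-beta target genes listed beside the members, 18 were highest in Control replicate 1, with a median ratio of 1.63 against 1.06 over the tested genes. Col1a1, a fibrillar collagen gene, was at 2.02 times from 198, 93 and 70 reads. Ccn2, another matrix gene driven by TGF-beta, was at 0.592 times from 64, 79 and 98 reads. Summed over 10 stellate cell markers, unscaled levels were 416, 251 and 267 CPM in Control replicates 1, 2 and 3, and over 10 sinusoidal endothelial markers 499.7, 262 and 272. Kupffer cell markers summed to 319, 241 and 237 CPM, and hepatocyte markers to 114782, 104504 and 100735. The part of these markers in the pathway values was not tested. In whole liver, more cells of a type and more RNA per cell cannot be told apart.

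Between the groups, 11 of the 44 tested members rose and 8 fell in the DKO-labelled libraries, and 25 missed the threshold, an adjusted p of 0.05 by the quasi-likelihood test of edgeR. Over all 15561 tested genes 44.1% passed, 31.3% higher and 12.8% lower, and of the tested members 43.2% passed, a share near that background. The log2 ratio is that of the DKO-labelled over the Control libraries after TMM scaling. Its median over the members was -0.30 and that of all tested genes -0.08. Values of the groups did not overlap for 29 of the 46 members, 12 above and 17 below Control, against 34.0% and 36.4% of tested genes. Counts by role below are to be read against these shares. Bmp6 and Inhbb were left out of the test by the low-count filter. Bmp6, the ligand that signals iron load, had 33, 10 and 13 Control reads against 0, 0 and 13 DKO-labelled reads, and Inhbb 63, 18 and 10 against 0, 0 and 1.

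**Figure D3:**
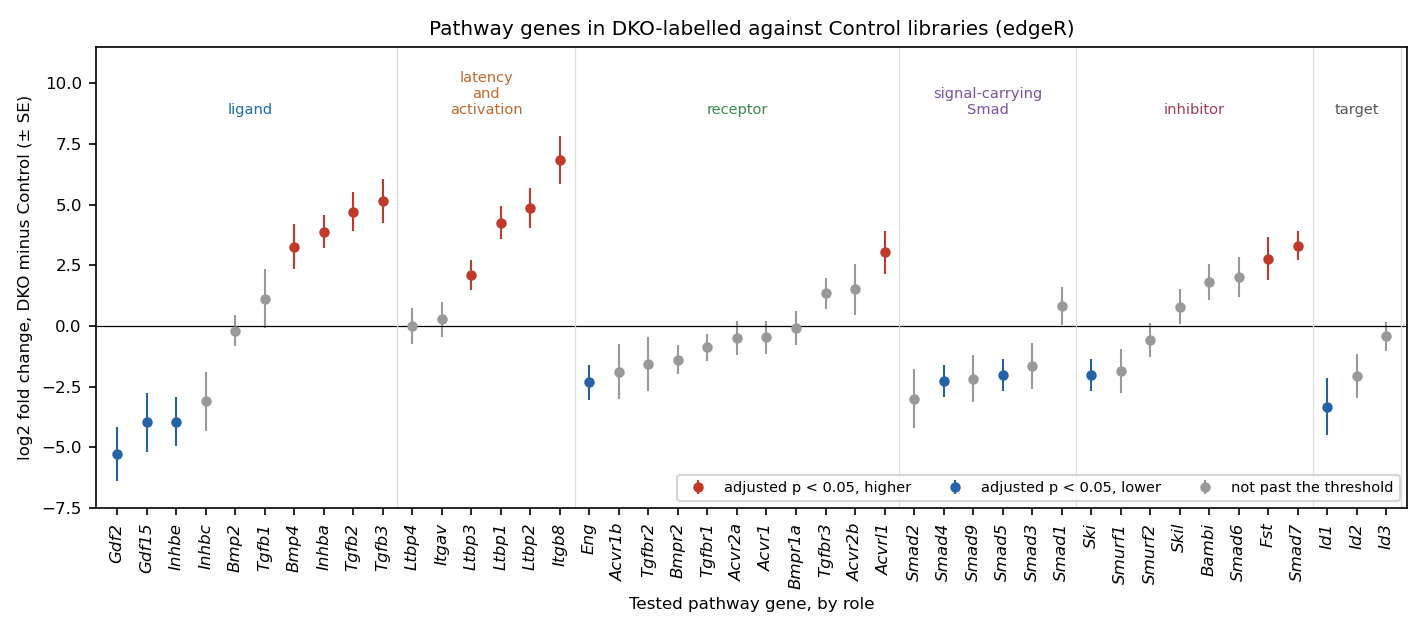
The log2 ratio, or log2 fold change (DKO minus Control, TMM-scaled), with its SE for the 44 tested pathway genes, by role, coloured by the edgeR call at an adjusted p of 0.05. The 11 higher genes include 4 ligand and 4 latency genes, from Ltbp3 at 2.10 to Itgb8 at 6.84, and the 8 lower genes run from Smad5 at -2.02 to Gdf2 at -5.27.

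The ligands that rose, Tgfb2, Tgfb3, Bmp4 and Inhba, stood at 0.164 to 2.38 CPM per kb in Control. Tgfb1, at 0.887, lay in the same range and was not called. Inhba, the activin A subunit gene (chromosome 13, 16011851 to 16031621), had 74, 38 and 71 Control reads against 47, 28 and 127 DKO-labelled reads. As TMM-scaled CPM this was 5.5 ± 1.96 against 81.8 ± 48.5 (SD, n = 3 each), with no overlap between groups. Its log2 ratio was 3.90 (SE 0.68, adjusted p = 0.00147). Tgfb2 had 19, 4 and 10 reads against 14, 14 and 32, a log2 ratio of 4.71 (SE 0.81, adjusted p = 0.00132). All DKO-labelled values of Tgfb2 lay above Control once scaled, although the reads themselves were as few. Tgfb3 had 13, 9 and 8 reads against 41, 3 and 35, a log2 ratio of 5.15 (SE 0.92, adjusted p = 0.00161), with DKO-labelled library 2 at the fewest reads. In that library alone against Control its call was lost (adjusted p = 0.128), and it had no value after background subtraction. Bmp4, a BMP of mesenchymal cells, had 39, 92 and 45 reads against 5, 26 and 96. Its groups overlapped in CPM, and its log2 ratio was 3.28 (SE 0.94, adjusted p = 0.0193). That call ended without Control replicate 1 or 3 and after background subtraction. Markers of smooth muscle and mesothelium, 6 genes with 3 higher and 0 lower of 5 tested, summed to 7.38 to 12.5 TMM-scaled CPM in Control and 112 to 369 in the DKO-labelled libraries. Stellate cell markers, 10 genes with 1 higher and 1 lower, summed to 320 to 504 and 181 to 384, and bile duct markers, 8 genes with Cldn4 at 0 and 4 higher and 1 lower of 7 tested, to 92.9 to 123 and 177 to 277. Lymphocyte markers, 8 genes with 3 of 3 tested higher, summed to 4.88 to 7.94 and 59.8 to 108. The part of these markers in the higher ligands was not tested.

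The ligands that fell, Gdf2, Gdf15 and Inhbe, stood at 5.79 to 43.1 CPM per kb in Control and are made by liver cells. Bmp2, at 5.93, was not called. Gdf2, which encodes BMP9, the circulating ligand of endothelial cells (chromosome 14, 33941039 to 33947198), had 279, 164 and 151 Control reads against 0, 0 and 1 DKO-labelled reads. No DKO-labelled library came near Control, and the ratio of summed scaled counts was 0.025, with a counting interval of 0.000626 to 0.138. Its log2 ratio was -5.27 (SE 1.11, adjusted p = 0.00377). Gdf15 (chromosome 8, 70629393 to 70632456) had 1278, 732 and 724 reads against 0, 10 and 0, a log2 ratio of -3.97 (SE 1.22, adjusted p = 0.0255), a call lost when any 1 Control replicate was left out, after background subtraction (adjusted p = 0.138) and on the abundant-transcript scale. Inhbe (chromosome 10, 127348857 to 127354411) had 1669, 476 and 407 reads against 0, 6 and 4. Both ligands were below every Control value in all 3 DKO-labelled libraries. The log2 ratio of Inhbe was -3.94 (SE 1.01, adjusted p = 0.0109), a call that ended without Control replicate 1, the library in which it was highest. Inhbc, with 0, 12 and 0 reads against 846, 530 and 445, had a log2 ratio of -3.10 (SE 1.22, adjusted p = 0.0653). Bmp2, the endothelial ligand upstream of hepcidin, had 304, 209 and 202 reads against 24, 9 and 9, a log2 ratio of -0.18 (SE 0.63, adjusted p = 0.819). Hepatocyte markers, 10 genes with none called, summed to 128964 to 139022 TMM-scaled CPM in Control and to 873, 43036 and 7976 in DKO-labelled libraries 1, 2 and 3, and their part in the lower ligands was not tested. Tgfb1, named here although the naming rule did not select it, had 94, 24 and 39 reads against 0, 17 and 2 (adjusted p = 0.453).

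Of 6 latency genes, 4 were called higher and 0 lower, beside 31.3% and 12.8% of all tested genes, and none was called higher after background subtraction. Ltbp1 and Ltbp2, which tether latent TGF-beta to matrix, had 24, 23 and 19 reads in Control against 30, 11 and 52, and 19, 8 and 8 against 17, 31 and 15. Their log2 ratios were 4.26 (SE 0.69, adjusted p = 0.00104) and 4.87 (SE 0.80, adjusted p = 0.00116). The call of Ltbp1 was lost after background subtraction (adjusted p = 0.0759), and Ltbp2 had no value there. Itgb8 had 14, 15 and 5 reads against its 1, 2 and 1 in Control, the largest log2 ratio of the members at 6.84 (SE 0.99, adjusted p = 0.000783). For these 3 genes every DKO-labelled value lay above Control. Ltbp3 had 88, 56 and 46 reads against 15, 14 and 26, a log2 ratio of 2.10 (SE 0.61, adjusted p = 0.0201), which became -3.21 once background was subtracted, and its call was lost when any 1 Control replicate was left out. The better expressed Ltbp4, with 374, 228 and 149 reads against 4, 14 and 33, had a log2 ratio of 0.01 (SE 0.73, adjusted p = 0.995). Itgav, the αv integrin subunit, had 346, 255 and 250 reads against 8, 10 and 59 (log2 ratio 0.29, SE 0.72, adjusted p = 0.752).

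Of 11 receptors and co-receptors 1 rose and 1 fell, beside 31.3% and 12.8% of all tested genes. Eng (chromosome 2, 32646595 to 32682669) had 981, 555 and 471 Control reads against 2, 11 and 13 DKO-labelled reads, with no overlap and a log2 ratio of -2.31 (SE 0.72, adjusted p = 0.0278). Acvrl1 encodes ALK1, the BMP9 receptor with which endoglin works on endothelial cells. It had 72, 30 and 6 reads against 11, 14 and 33, with no overlap between groups. The log2 ratio of Acvrl1 was 3.05 (SE 0.88, adjusted p = 0.0200). At 0.487 unscaled CPM in Control replicate 3, it needed the DKO-labelled libraries to enter the test. Its call ended without Control replicate 2 or 3 and after background subtraction, and that of Eng when any 1 Control replicate was left out and after background subtraction. On the abundant-transcript scale described below the log2 ratio of Eng was 1.61. Sinusoidal endothelial markers, 10 genes with 1 higher and 1 lower, summed to 333 to 605 TMM-scaled CPM in Control and to 299 to 387 in the DKO-labelled libraries, with no marker at 0 in all of the latter. Their part in the values of Eng and Acvrl1 was not tested.

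No other receptor passed the threshold. Tgfbr1 had 425, 288 and 316 reads against 10, 11 and 17, all below Control, with a log2 ratio of -0.87 (SE 0.56, adjusted p = 0.214). Bmpr1a, a BMP type I receptor, had 376, 324 and 246 against 14, 31 and 9 (-0.08, SE 0.69, adjusted p = 0.929 for its log2 ratio). The type II receptor Bmpr2, with 382, 276 and 374 against 8, 8 and 11, was below Control in every DKO-labelled library. Its log2 ratio was -1.38 (SE 0.59, adjusted p = 0.0799). Acvr2a had 288, 273 and 269 reads against 20, 14 and 4 (adjusted p = 0.576), and Acvr1b 192, 193 and 153 against 0, 0 and 11 (adjusted p = 0.186). Log2 fold changes of the other 4, Tgfbr2, Tgfbr3, Acvr1 and Acvr2b, ran from -1.58 to 1.52.

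Smads that carry the signal lay below Control with the exception of Smad1, as did 36.4% of all tested genes. Smad4, the common partner, had 260, 244 and 246 Control reads against 4, 2 and 5 DKO-labelled reads, a log2 ratio of -2.25 (SE 0.66, adjusted p = 0.0205). Smad5 had 396, 315 and 287 against 10, 2 and 5, a log2 ratio of -2.02 (SE 0.68, adjusted p = 0.0364). The groups did not overlap for either gene, and both calls ended when any 1 Control replicate was left out, that of Smad5 also without DKO-labelled library 3. On the abundant-transcript scale the log2 ratios were 2.92 and 4.29. Smad2, Smad3 and Smad9 were also below Control in every DKO-labelled library, with log2 ratios of -2.98, -1.65 and -2.16 and adjusted p of 0.0711, 0.177 and 0.0976. Smad1, with 217, 203 and 137 reads against 4, 14 and 53, overlapped Control (log2 ratio 0.82, SE 0.78, adjusted p = 0.396).

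The 8 inhibitors gave 2 higher calls and 1 lower, beside 31.3% and 12.8% of all tested genes. Smad7, the feedback inhibitor that TGF-beta and BMP signals induce, had 137, 123 and 89 Control reads against 107, 33 and 107 DKO-labelled reads. The scaled level there was 103 ± 41.3 TMM-scaled CPM against 10.3 ± 0.99 in Control (SD, n = 3 each). The groups did not overlap, and the log2 ratio was 3.32 (SE 0.61, adjusted p = 0.00179). Fst, which encodes the activin trap follistatin, had 74, 23 and 27 reads against 10, 31 and 8, a log2 ratio of 2.78 (SE 0.88, adjusted p = 0.0291). Its call ended without DKO-labelled library 2, when any 1 Control replicate was left out and after background subtraction. Ski, a Smad co-repressor, had 400, 271 and 184 reads against 3, 4 and 7, a log2 ratio of -2.02 (SE 0.66, adjusted p = 0.0322), lost when any 1 Control replicate was left out and 2.56 on the abundant-transcript scale. Smurf2 had 521, 491 and 529 against 6, 18 and 50 (adjusted p = 0.498), and Smurf1 210, 213 and 160 against 0, 4 and 7 (adjusted p = 0.124). Smad6, the BMP-side inhibitor, had a log2 ratio of 2.03 (adjusted p = 0.0729), the pseudoreceptor gene Bambi 1.81 (adjusted p = 0.0718) and Skil 0.80 (adjusted p = 0.375).

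Of the 3 Id targets, 1 fell and 2 missed the threshold, where 12.8% of all tested genes fell. Id1 (chromosome 2, 152736251 to 152737410) had 292, 89 and 73 reads against 0, 0 and 3, a ratio of summed scaled counts of 0.0972 with a counting interval of 0.0200 to 0.286. Its log2 ratio was -3.33 (SE 1.17, adjusted p = 0.044), and the call ended without DKO-labelled library 1 or 2. On the abundant-transcript scale it was 0.13. Id2, whose printed window holds GGCGCC, had 2261, 1069 and 990 reads against 2, 25 and 41, all below Control (log2 ratio -2.06, SE 0.91, adjusted p = 0.0914). Id3 had 788, 365 and 245 against 19, 24 and 22, overlapping Control (log2 ratio -0.42, SE 0.59, adjusted p = 0.563).

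Reads of the members in the DKO-labelled libraries were next set beside what background plus liver RNA at Control proportions would give, with the liver part scaled on the 163 abundant transcripts. Summed over the 46 members, 513, 517 and 1016 reads were observed in libraries 1, 2 and 3, against 405, 489 and 757 expected, of which background made up 399.6, 288 and 699. Background made up most of the expected pathway reads in all 3 libraries. Of the 46 members, 14, 6 and 3 had no read in the 3 libraries. Library 2, with the largest share of liver RNA, has the largest liver part of the expected reads. There Id2 had 25 reads (exact Poisson 95% interval 16.2 to 36.9, counting error only) against 29.1 expected, and Inhbc 12 (6.2 to 21) against 13.6. Eng had 11 reads (5.49 to 19.7) against 18.2. For these 3 genes the expected count lay within the interval of the observed one. Gdf15 had 10 reads (4.8 to 18.4) against 19.5, Inhbe 6 (2.2 to 13.1) against 22.9, and Smad4 and Smad5 2 each (0.242 to 7.22) against 10.1 and 12.7, so that the expected count lay above the interval. Gdf2 had 0 (a count of 0 allows up to 3) against 7.54, of which 3.89 was background. A count below the background estimate alone was common, with 27, 21 and 27 members in the 3 libraries.

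**Figure D4:**
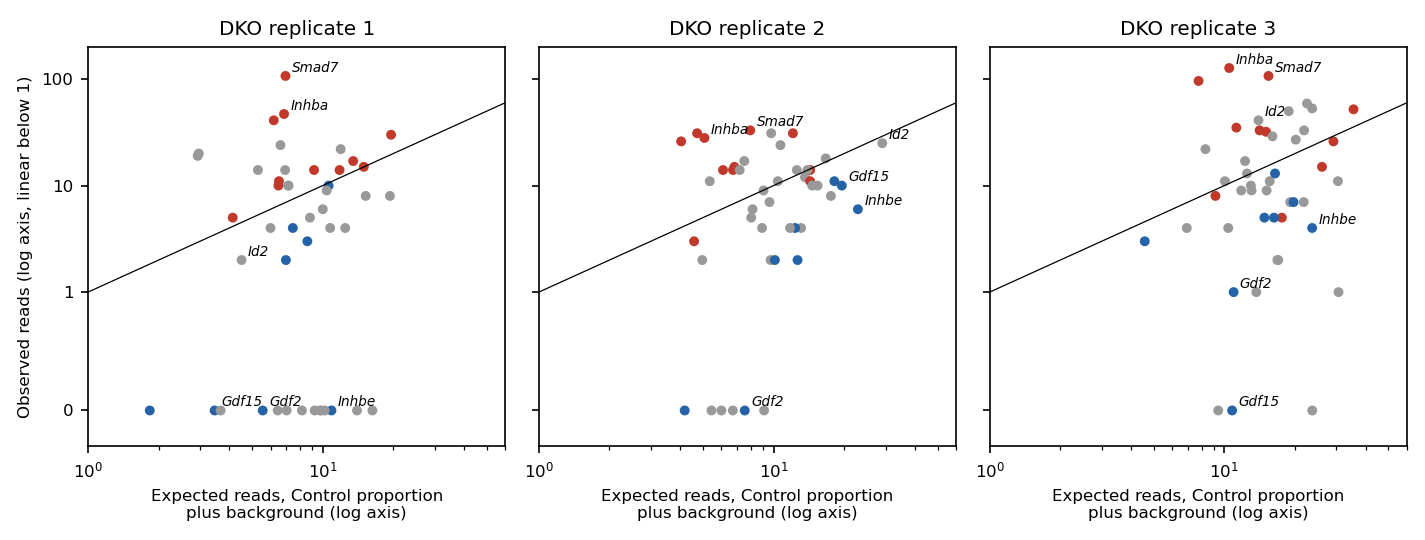
Observed reads of the 46 pathway genes in each DKO-labelled library against the reads expected from Control proportions plus background, with the line of equality, log axes (observed reads linear below 1), and colours for edgeR calls (red higher, blue lower, grey not called or not tested). Smad7 (107, 33 and 107 reads) and Inhba (47, 28 and 127) lie above the line in all 3 libraries, and Gdf2 (0, 0 and 1) and Inhbe (0, 6 and 4) below it.

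Smad7 and Inhba were above the expected counts in every DKO-labelled library. For Smad7 107, 33 and 107 reads compared with 6.94, 7.96 and 15.4 expected, and for Inhba 47, 28 and 127 with 6.84, 5.08 and 10.5. Tgfb2 had 14, 14 and 32 reads against 9.19, 6.72 and 15.1. With background subtracted, 3 of 40 tested members were called higher and 15 lower, against 17.3% and 20.8% of 13332 genes. The 3 were Smad7, Inhba and Tgfb2, with adjusted p of 0.0104, 0.0109 and 0.0112, and they were higher in all 14 alternative analyses. Itgb8 and Ltbp2 had no value after subtraction. Background alone gave 11.8, 6.79 and 17.6 expected reads for Itgb8, where 14, 15 and 5 were observed. For Ltbp2 it gave 13.5, 11.9 and 26.0, where 17, 31 and 15 were observed. Itgb8, with 1, 2 and 1 Control reads, entered the test only through the DKO-labelled libraries, as did Tgfb2, Tgfb3 and Ltbp2. Acvrl1, low in Control replicate 3, and Acvr2b, low in Control replicate 1, also needed those libraries to enter. For a comparison with the silent genes, the expected liver part was taken off and the rest was divided by background alone. This ratio exceeded the middle 95% of silent genes for Smad7 in libraries 1 and 3, and for Inhba and Bmp4 in libraries 2 and 3. Fst, Bmpr1a and Id3 exceeded it in library 2, and Tgfb2 in no library. By this measure the Tgfb2 reads lay within the spread of background in all 3 libraries, although its call was kept. In library 2 background gave 2.92 reads for Bmp4 and 2.29 for Id3, under the 3 required of the silent genes. On the scale of the abundant liver transcripts 29 members were called higher and 0 lower, while the median of all genes moved from -0.08 to 4.69, and relative to that median the member median of 4.84 differed by little.

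Related genes outside the 46 were counted from 6 further lists of 90 symbols. Of 62 tested genes, each counted once, 15 rose and 9 fell, beside 31.3% and 12.8% of all tested genes, with a median log2 ratio of -0.53 against -0.08 over all genes. The counts by list below are to be read against the same shares. Other ligands had 4 higher and 1 lower of 6 tested. Bmp3 had 1, 0 and 0 reads against 20, 12 and 14, Gdf11 7, 0 and 1 against 48, 37 and 20, and Bmp7 14, 44 and 25 against 93, 30 and 60, with log2 ratios of 8.68, 7.62 and 4.93 (adjusted p = 0.00069, 0.000797 and 0.000874 in edgeR). Bmp3 and Gdf11 were nearly silent in Control and entered the test only through the DKO-labelled libraries. Bmp7, a BMP of kidney and skeleton, stood at 0.637 CPM per kb in Control. At 0.882 unscaled CPM in Control replicate 1, Bmp7 also needed the DKO-labelled libraries to enter the test. Other receptors and co-receptors had 4 higher and 0 lower of 6, with the smallest adjusted p for the BMP co-receptor gene Rgmb (log2 ratio 6.36), Acvr1c (5.84) and Bmpr1b (5.24), the last with 1, 5 and 6 reads against 6.36, 3.66 and 9.47 expected from background. Rgmb, Acvr1c and Bmpr1b also entered the test only through the DKO-labelled libraries.

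Other extracellular regulators had 4 higher and 4 lower of 16. Chrd, which encodes the BMP trap chordin, had 124, 125 and 111 reads in Control and 0 in every DKO-labelled library. On the TMM scale this was at least 8.16-fold lower when 3 counts are set as the floor of the whole group. Liver RNA at Control proportions, before background, would give only 0.0557, 2.27 and 0.659 reads of Chrd in DKO-labelled libraries 1, 2 and 3. Sost and Itgb6 rose, with log2 ratios of 8.93 and 8.61. Sost had 2, 0 and 1 Control reads against 54, 34 and 30 DKO-labelled reads. Itgb6 had 0, 0 and 1 against 2, 16 and 28, where background alone gave 10.01, 6.17 and 13.9. Both genes were nearly silent in Control and entered the test only through the DKO-labelled libraries. Itgb6 had no value after background subtraction. Other intracellular regulators had 1 higher, the TGF-beta-induced Pmepa1 (log2 ratio 3.14), and 2 lower of 14, the ubiquitin ligase gene Stub1 (-3.01) and the phosphatase gene Ppm1a (-3.27). Both lower calls were lost when any 1 Control replicate was left out, that of Ppm1a also without DKO-labelled library 3, and Stub1 stood at 1.31 on the abundant-transcript scale.

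TGF-beta target genes gave 3 higher and 1 lower of 18, with a median of -0.11. Thbs1, Pmepa1 and Col1a1 rose, with log2 ratios of 4.18, 3.14 and 2.83 and adjusted p of 0.00597, 0.00756 and 0.00807. All 3 calls were lost without Control replicate 2, and those of Pmepa1 and Col1a1 also without replicate 3 and after background subtraction (adjusted p = 0.112 and 0.0504). Thbs1 had 3, 12 and 5 DKO-labelled reads where background alone gave 12.01, 8.84 and 22.0, and it had no value after subtraction. With 12, 4 and 2 Control reads, it too entered the test only through the DKO-labelled libraries. Ccn2, named after its values were seen, had no read in any DKO-labelled library against 64, 79 and 98 in Control. On the TMM scale this was at least 5.46-fold lower with the same floor of 3 counts. Liver RNA at Control proportions, before background, would give only 0.0381, 1.55 and 0.451 reads of Ccn2 in DKO-labelled libraries 1, 2 and 3. Of 4 tested BMP target genes, Runx2, the bone transcription factor, rose (log2 ratio 9.25, adjusted p = 0.000671) and Atoh8 fell, from 386, 167 and 95 reads to 2, 0 and 0 (log2 ratio -4.35, adjusted p = 0.0145). Runx2 had 1, 3 and 1 Control reads against 92, 74 and 62, where background gave 17.5, 12.9 and 32.0. It entered the test only through the DKO-labelled libraries. The call of Atoh8 was lost without Control replicate 1 or DKO-labelled library 3. The hepcidin genes had log2 ratios of -2.45 for Hamp (named after its values were seen, adjusted p = 0.182) and -2.43 for Hamp2 (adjusted p = 0.0613). Hamp had 6608, 4419 and 4651 Control reads against 0, 68 and 127 DKO-labelled reads, with no overlap once scaled.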

How the data were processed

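Read counts per Ensembl gene ID were deposited for 6 liver libraries, and the submitters' processing notes name STAR, HTSeq and mm10. Their versions, the annotation release and the strand setting: not given in the sources used here. Exons of 13 members overlap those of another gene model (such as Fpgs for Eng), whose reads could not be assigned by strand. The 5 rows that name no gene held 65.1% to 66.7% of reads in Control and 95.3% to 97.3% in DKO, and were left out. GENCODE M21, of the same build, supplied symbols, gene models and base composition, matched for 42462 of 43346 IDs.

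Groups were compared with the quasi-likelihood test of edgeR 4.0.16 (R 4.3.3), with TMM scaling, filterByExpr, robust fitting, no covariates and two-sided Benjamini-Hochberg adjusted p over all tested genes. The SE is the log2 fold change divided by the root of the F statistic. The function was tested on simulated data. Members, lists and tests were chosen with earlier results of these data known. Values in every library are given for members past the threshold, those with 20 CPM or more in Control and the 3 highest per kb of each role, and up to 3 related genes per list by adjusted p. Of 90 related symbols, Gdf1 was not matched. No 2 libraries were identical or agreed within sampling noise. Background reads were estimated on 8600 protein-coding genes of no more than 10 Control reads, in 10 bins of GC content, times exonic length. Abundant transcripts were 163 nuclear genes with over 30000 Control reads. Alternatives included DESeq2 1.42.0. Without molecular identifiers, the intervals and floors express only counting error.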

Additional observations from a re-analysis of the deposited data

How the results depend on the processing

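Smad7, Inhba and Tgfb2 kept their calls in all 14 alternatives, and Gdf2 in 13. Leaving out 1 library gave 7 to 12 members higher and 1 to 12 lower, 4130 to 5624 genes higher and 567 to 4492 lower, and 9 to 19 related genes higher and 2 to 19 lower. Without Control replicate 1, 2 or 3 the lower members numbered 1, 2 and 2. The cause was not tested.

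The replicate block gave 9 members higher and 5 lower. Replicate numbers share only a number: deviations of same-numbered libraries correlated at 0.121, 0.0726 and -0.0204, and Control replicate 3 correlated best with DKO replicate 2. With the block, log2 ratios turned to -0.14 for Itgav, -0.21 for Ltbp4 and -0.13 for Tgfb1. DESeq2 gave 16 members, 4776 genes and 25 related genes lower, its size factors in edgeR 3577 genes and 20 related genes lower. Both turned Bmp2 (0.0196 and 0.0076) and Ltbp4 (-0.14 and -0.15). No filter gave 14 members lower, 11477 genes higher and 4650 lower, 23 related genes lower, and -0.13 for Itgav and -0.47 for Ltbp4, which was -0.0591 with the 1 CPM filter. DKO replicate 2 alone gave 4374 genes and 19 related genes lower, and -7.07 for Acvr2b (0 reads there), 0.94 for Bmpr1a, 0.0614 for Id3, -0.54 for Itgav, -0.0018 for Skil and 0.0596 for Tgfbr2. This fit takes the spread of that library from Control.

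Background subtraction took reads from the DKO-labelled libraries only, by construction a downward shift of their counts. It gave 3 members higher and 15 lower, 2301 genes and 6 related genes higher, and -0.30 for Bambi, -0.27 for Itgav, -3.21 for Ltbp3, -1.04 for Ltbp4, -0.45 for Skil and -0.0911 for Tgfbr3. The abundant-gene scale, by construction an upward shift, gave 29 members higher and 0 lower, 9737 genes higher and 84 lower, 33 related genes higher and 1 lower. It turned Acvr1 (4.66), Acvr1b (2.16), Acvr2a (5.65), Bmp2 (6.18), Bmpr1a (5.05), Bmpr2 (4.02), Ctnnb1 (0.90), Eng (1.61), Hamp (0.85), Hamp2 (0.65), Id1 (0.13), Id2 (1.64), Id3 (5.03), Jup (3.91), Ski (2.56), Smad3 (2.02), Smad4 (2.92), Smad5 (4.29), Smad9 (0.86), Smurf1 (1.66), Smurf2 (3.83), Stub1 (1.31), Tgfbr1 (4.47) and Tgfbr2 (1.04).

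Leaving out 1 library turned 8 values, whose log2 ratios over these settings ran from -2.11 to 1.74 for Tgfb1, -0.91 to 0.60 for Bmp2, -0.40 to 0.34 for Ltbp4, -0.58 to 0.58 for Itgav, -1.19 to 0.56 for Bmpr1a, -1.06 to 0.38 for Acvr2a, -0.0009 to 1.19 for Smad1 and -0.89 to 0.0875 for Id3.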
